A study of Mus musculus with 8 samples.

Results

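Mlip, Fndc3b and Rad52 are host genes of circular RNAs (circRNAs) in the mouse heart. Their circles were taken by gene name, as all rows that the deposited table assigns to any of the 3 genes, and numbered 31 of 27391 circles in the table, from 3 of 6492 host genes. Mlip had 5 circles, Fndc3b 19 and Rad52 7. The genes were selected on levels and fold changes measured in these same libraries, so their levels in the groups are given as a description. Their rows in fits over all circles are reported further on, but the calls there are no support for a change in these genes. The study compared sham-operated hearts (4 mice) with hearts after transverse aortic constriction (TAC, 4 mice), all from male wild-type animals and collected 8 weeks after surgery. TAC narrows the aortic arch, and the left ventricle then pumps against a raised pressure. All mice were of the same WT genotype, 1 library was made per mouse from heart tissue, and the labels name no drug or transgene. Libraries are called sham 1 to 4 and TAC 1 to 4, with numbers that pair no mice across the groups.

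A circRNA arises when the donor site at the end of an exon is joined backwards to an acceptor site that lies upstream of it. The closed loop has no free ends, which protects it from exonucleases, and circles are known to accumulate in tissues of long-lived cells such as heart muscle. Only reads across this back-splice junction tell a circle from the linear transcript of its host, and these back-spliced reads are what the table counts. Mlip encodes the muscle-enriched lamin A/C interacting protein, a partner of the nuclear lamina in heart and skeletal muscle. Fndc3b encodes a membrane protein with fibronectin type III domains, known from adipocyte differentiation and cell adhesion, and a circle of it has been studied in the infarcted mouse heart. Rad52 encodes a protein that binds single-stranded DNA and anneals complementary strands in homologous recombination.

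The closing junctions define each circle, so those of the leading circles are printed first, as the last 30 bases of the circle in lower case followed by its first 30 bases in capitals, 5′ to 3′ on the gene's strand. The change from lower case to capitals is the back-splice. Sequences were read from GENCODE M21 transcripts on mm10. The first 3 share their capitals, since these Mlip circles start at the same acceptor and differ only in the exon at which they close.
Mlip exons 3 to 7: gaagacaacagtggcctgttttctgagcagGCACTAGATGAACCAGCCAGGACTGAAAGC
Mlip exons 3 to 6: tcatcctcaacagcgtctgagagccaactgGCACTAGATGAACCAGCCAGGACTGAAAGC
Mlip exons 3 to 5: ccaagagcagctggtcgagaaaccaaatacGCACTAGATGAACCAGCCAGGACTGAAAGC
Fndc3b exons 8 to 11: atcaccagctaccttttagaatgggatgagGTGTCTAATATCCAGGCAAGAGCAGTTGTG
Fndc3b exons 2 to 3: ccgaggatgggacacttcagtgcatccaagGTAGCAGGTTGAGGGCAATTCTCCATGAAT
Rad52 exons 10 to 11: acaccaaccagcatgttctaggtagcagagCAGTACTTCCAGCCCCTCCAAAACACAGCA
Rad52 exons 10 to 11, inner start: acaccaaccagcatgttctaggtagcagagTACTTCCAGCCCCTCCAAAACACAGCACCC
Rad52 exons 2 to 5: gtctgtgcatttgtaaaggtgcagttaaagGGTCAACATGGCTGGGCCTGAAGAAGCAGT

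The libraries differed widely in depth, from 1119 back-spliced reads in TAC 2 and 3963 in sham 2 to 100142 in sham 4, with 17890 to 40796 in the other 5. Values are normalised reads, the authors' back-spliced reads divided by 1 size factor per library (0.173 to 5.14), so 1 read was worth 5.77 normalised reads in TAC 2, 4.54 in sham 2 and 0.195 in sham 4. No read of any of the 31 circles was found in TAC 2, where a count of 0 allows up to 3 reads, or 17.3 normalised reads and 0.268% of the library's reads, for counting error only. By the same limit, a count of 0 in sham 2 allows up to 13.6 normalised reads. Libraries also differed in the lengths of the circles they sampled: circles under 300 nt took 12.5 to 31.2% of the reads in the sham libraries and 7.26, 32.9, 7.88 and 9.86% in TAC 1 to 4. Of 12 cardiomyocyte markers 10 had a circle, and their summed level was 190 to 809 normalised reads in sham and 277 to 1692 in TAC libraries. The fibroblast markers summed to at most 4.54 normalised reads in any library, with 4 of 9 at 0 throughout, and the 9 endothelial markers to 5.77 to 52.1. In whole tissue, fewer cells of a type and less RNA per cell cannot be told apart.

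Together the 31 circles held 1655 reads, 1012 from Rad52, 335 from Mlip and 308 from Fndc3b. Most of the circles were rare: 9 rested on a single read, 14 were seen in 1 library and 9 in 2 or 3 libraries. The 8 circles above 0 in at least 4 of 8 libraries, the filter of the fits over all circles, held all but 86 of the reads. They were 2 of Mlip, 3 of Fndc3b and 3 of Rad52. None of the other 23 had more than 21 reads. By presence alone, 12 of the 31 circles were seen in both groups, 6 in sham and 13 in TAC libraries only. Of the 19 Fndc3b circles, 5 were seen in both groups, 5 in sham and 9 in TAC only. Over all genes, the libraries held 9081, 1830, 4980 and 5600 circles in sham 1 to 4 and 10786, 567, 7770 and 11550 in TAC 1 to 4. Presence in a single group was not counted over all circles, so nothing is read from these counts.

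**Figure D1:**
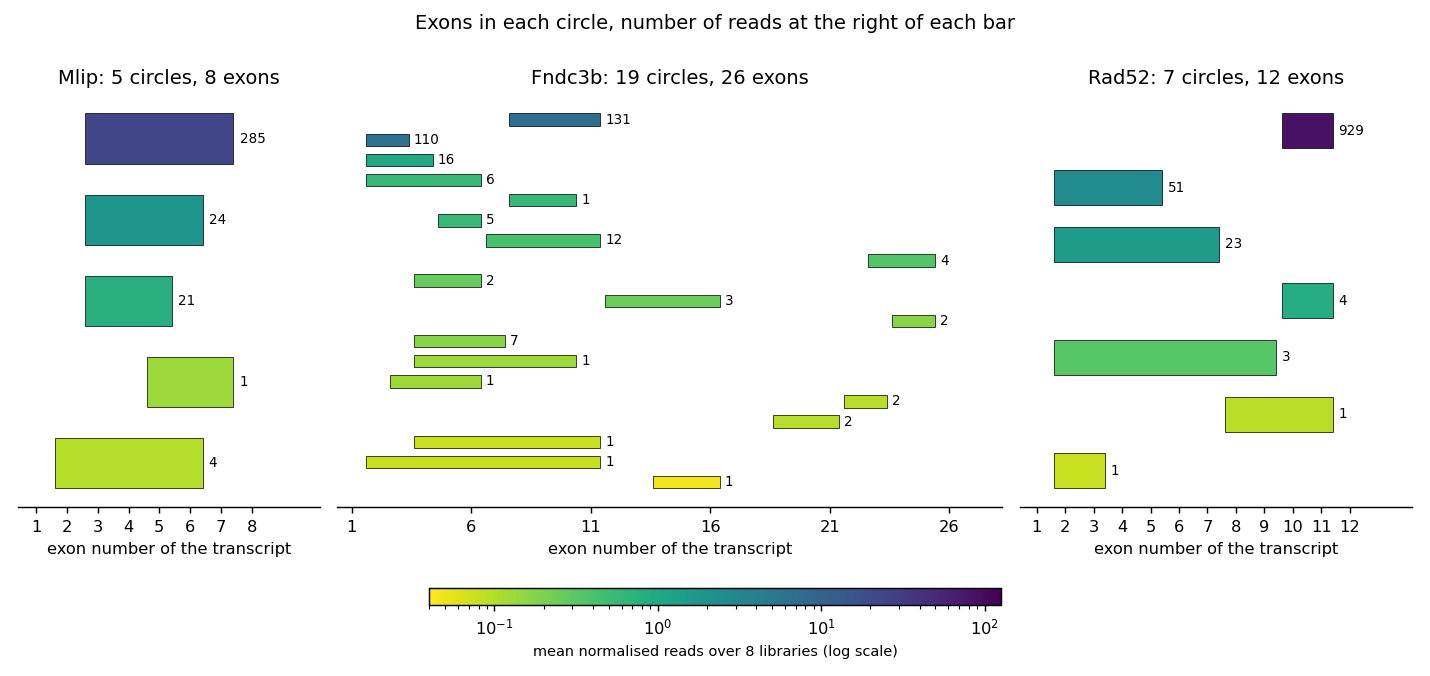
Exons held by each of the 31 circles, drawn as bars over the exon number of the transcript (x axis) and coloured by the mean normalised reads over the 8 libraries on a log scale, with the number of back-spliced reads at the right of each bar. The Mlip circles share exon 5, most Rad52 reads come from exons 10 and 11, and the Fndc3b circles spread from exon 2 to exon 25 with 131 and 110 reads in the leading circles.

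Rad52 gave the most abundant circle of the 3 genes, the loop of exons 10 and 11 of 12 (chr6:119920110-119921028, plus strand, 303 nt, coding sequence throughout). The gene lies at chr6:119902698-119922828. In mean normalised reads this circle ranked 5 of all 27391 circles, and it held 929 of the gene's 1012 reads (91.8%). It gave 103, 41, 26 and 244 reads in sham 1 to 4 and 159, 0, 157 and 199 in TAC 1 to 4. In normalised reads these were 39.1, 186, 21.5 and 47.5 in sham, and 118, 0, 162 and 127 in TAC. Sham 2 lay above every other library, TAC 2 had none, and the groups overlapped. Of the remaining libraries, the 3 of TAC were all above the 3 of sham. How many of all circles had this order was not counted, so nothing is read from it. By another measure, the adjusted threshold of limma, 14.6% of 5809 circles were called higher in TAC on these libraries. That fit took circles above 0 in at least 3 of these libraries, so some entered through the TAC libraries alone. Means were 73.6 ± 75.9 in sham and 102 ± 70.3 in TAC (SD, n = 4 each), so the difference was smaller than the spread between mice. Without sham 2 and TAC 2, the libraries under 5000 reads, the means were 36.0 ± 13.2 and 135 ± 23.0 (SD, n = 3 each).

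By its standing within each library, the Rad52 circle ranked 33, 2, 79 and 36 among the circles of sham 1 to 4, and 6, 5 and 4 in TAC 1, 3 and 4. All circles of Rad52 together took 0.282% of the reads of sham 1, 1.09% in sham 2 (95% Wilson interval 0.807 to 1.46%), 0.168% in sham 3 and 0.282% in sham 4. They took 0.507% in TAC 1, 0.773% in TAC 3 and 0.584% in TAC 4 (intervals 0.436 to 0.589%, 0.664 to 0.901% and 0.511 to 0.668%). The limit of 0.268%, or 3 reads, in TAC 2 lay below the intervals of the other TAC libraries and above the value of sham 3 alone among the sham libraries. The Wilson interval of TAC 2 reached 0.342%, still below those of the other TAC libraries but above the values of sham 1, 3 and 4.

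A second Rad52 circle shared the donor of exon 11 and began 3 bases further into exon 10 (chr6:119920113-119921028, 300 nt). The 3 bases between the starts are CAG, and the exon border in the genome reads as follows, with the capitals marking the stretch that holds the AG dinucleotides of both acceptors (chr6:119920108-119920112 within chr6:119920080-119920139, mm10, plus strand).
Rad52 exon 10 acceptor: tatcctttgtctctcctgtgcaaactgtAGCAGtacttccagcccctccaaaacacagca
The inner start had 4 reads, 1 in sham 2, 1 in TAC 3 and 2 in TAC 4, against 929 for the outer start, or 0.395% of the gene's reads. Both lengths are whole numbers of codons, 101 and 100.

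The other Rad52 circles started almost all at exon 2, which holds 7 bases of 5′ untranslated region before the coding sequence. Exons 2 to 5 (chr6:119911048-119914237, 358 nt) gave 11, 0, 3 and 23 reads in sham 1 to 4 and 6, 0, 2 and 6 in TAC 1 to 4. Its means were 2.78 ± 2.05 and 2.58 ± 2.0 normalised reads (SD, n = 4 each), which differed by less than the spread. Both include a 0 that allows more than these means, up to 13.6 in sham 2 and 17.3 in TAC 2. Exons 2 to 7 (chr6:119911048-119916042, 553 nt) gave 1, 1, 1 and 15 reads in sham and 2, 0, 1 and 2 in TAC, with means of 2.17 ± 1.93 and 0.947 ± 0.659 normalised reads. Exons 2 to 9 (905 nt) had 3 reads, 2 in TAC 3 and 1 in TAC 4. Exons 8 to 11 and exons 2 to 3 had 1 read each, in TAC 1 and TAC 4. No circle held exon 1 or exon 12.

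Mlip gave its main circle from exons 3 to 7 of 8 (chr9:77164765-77190737, minus strand, 345 nt, coding throughout), within a gene that spans 250889 bases at chr9:77102081-77352969. This circle ranked 75 of all circles by mean and held 285 of the gene's 335 reads (85.1%). Reads were 64, 9, 12 and 65 in sham 1 to 4 and 43, 0, 29 and 63 in TAC 1 to 4. The normalised reads were 24.3, 40.9, 9.94 and 12.6 in sham, and 32.0, 0, 29.8 and 40.1 in TAC. As for Rad52, sham 2 was the highest library and TAC 2 had no read, so the groups overlapped. Means were 21.9 ± 14.1 in sham and 25.5 ± 17.5 in TAC (SD, n = 4 each), and without sham 2 and TAC 2 they were 15.6 ± 7.61 and 34.0 ± 5.39 (SD, n = 3 each). TAC 2 could have held up to 17.3 normalised reads unseen, more than the values of sham 3 and sham 4.

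Of the 5 Mlip circles, 4 opened at exon 3, closed at exon 7, or did both. Exon 3 opened 98.5% of the gene's reads, and they closed at exon 7 (85.4%), exon 6 (8.36%) or exon 5 (6.27%). Exons 3 to 6 (chr9:77173959-77190737, 216 nt) lack exon 7, which adds 129 nt to the main circle. That exon (chr9:77164765-77164893, minus strand) is the whole difference between the leading Mlip circles and reads, on the gene's strand and in lower case throughout:
Mlip exon 7: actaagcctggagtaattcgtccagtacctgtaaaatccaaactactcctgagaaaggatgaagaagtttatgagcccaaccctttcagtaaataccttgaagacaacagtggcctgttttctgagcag
The circle of exons 3 to 6 gave 10, 1, 3 and 7 reads in sham 1 to 4 and 1, 0, 1 and 1 in TAC 1 to 4. In normalised reads it lay at 3.79, 4.54, 2.48 and 1.36 in sham, and at 0.744, 0, 1.03 and 0.636 in TAC. TAC 1, 3 and 4 lay below every sham library, while the place of TAC 2 is not known, since its 0 allows up to 17.3 normalised reads. Means were 3.05 ± 1.41 and 0.602 ± 0.434 (SD, n = 4 each), and the values of sham 2 and of TAC 1, 3 and 4 are single reads. With each 0 taken as listed, 2.22% of the 3735 circles above 0 in at least 4 libraries lay lower in every TAC library and 0.884% higher.

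The remaining Mlip circles were rarer. Exons 3 to 5 (171 nt) gave 2 and 17 reads in sham 3 and 4 and 2 in TAC 4, and none in the other libraries. Exons 2 to 6 (609 nt) had 4 reads in sham 4, and exons 5 to 7 (219 nt) 1 read in TAC 3. Exon 5 was in all 5 circles, exons 1 and 8 in none.

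**Figure D2:**
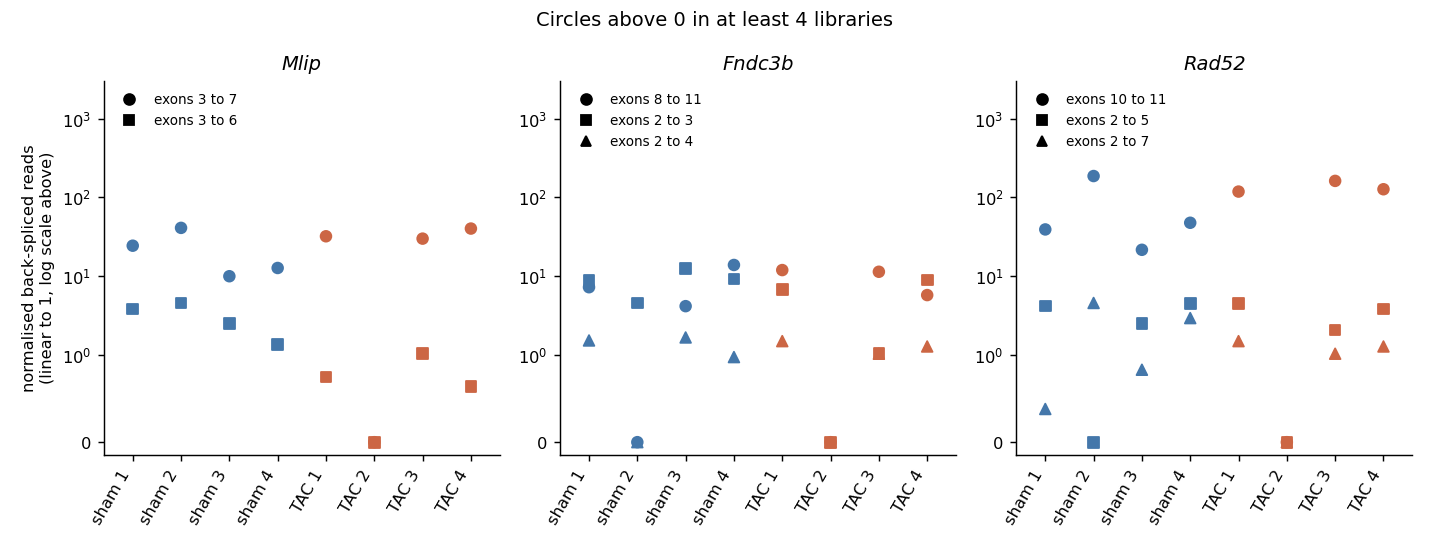
Normalised back-spliced reads (y axis, linear to 1 and log above) of the 8 circles above 0 in at least 4 libraries, for each of the 4 sham (blue) and 4 TAC libraries (orange), with marker shapes for the circles of a gene; all circles lie at 0 in TAC 2, where the markers cover each other. The Rad52 circle of exons 10 to 11 reaches 186 in sham 2 and 118 to 162 in TAC 1, 3 and 4, and the Mlip circle of exons 3 to 6 lies between 0 and 1.03 in TAC and between 1.36 and 4.54 in sham.

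Fndc3b had no single leading circle, and exons 8 to 11 are called leading in shares and fits only by their largest mean. Exons 8 to 11 of 26 (chr3:27488237-27501545, minus strand, 405 nt, coding throughout) and exons 2 to 3 (chr3:27620605-27643089, 215 nt) had means of 6.76 and 6.43 normalised reads over the 8 libraries and ranked 381 and 394 of all circles. They share no exon and come from separate stretches of a gene of 295146 bases (chr3:27416162-27711307). Exons 8 to 11 were read 19, 0, 5 and 71 times in sham 1 to 4 and 16, 0, 11 and 9 times in TAC 1 to 4. Their normalised reads were 7.20, 0, 4.14 and 13.8 in sham, and 11.9, 0, 11.3 and 5.72 in TAC. The groups overlapped, with means of 6.29 ± 5.82 and 7.24 ± 5.57 (SD, n = 4 each). Both means include a 0 from a shallow library, which allows up to 13.6 normalised reads in sham 2 and 17.3 in TAC 2.

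Exons 2 to 3 of Fndc3b hold the last 28 bases of the 5′ untranslated region and the annotated start codon. Reads of this circle were 23, 1, 15 and 47 in sham and 9, 0, 1 and 14 in TAC. In normalised reads they were 8.72, 4.54, 12.4 and 9.14 in sham, and 6.69, 0, 1.03 and 8.90 in TAC. TAC 1 and TAC 4 lay within the sham range and TAC 3 below it, and the means were 8.71 ± 3.23 and 4.16 ± 4.32 (SD, n = 4 each). The 4.54 of sham 2 is a single read. Exons 2 to 4 (chr3:27556120-27643089, 292 nt), whose span also contains the microRNA gene Mir3092 on the same strand, gave 4, 0, 2 and 5 reads in sham and 2, 0, 1 and 2 in TAC, with means of 1.04 ± 0.751 and 0.947 ± 0.659 normalised reads.

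The other 16 Fndc3b circles held 51 reads, at most 12 each. Exons 2 to 6 had 2 reads in sham 1, 1 in TAC 1 and 3 in TAC 3. Exons 5 to 6 (535 nt), singled out after the values were seen, had none in sham and 1, 0, 3 and 1 in TAC 1 to 4. Exons 8 to 10 had 1 read, in sham 2, where it counts as 4.54 normalised reads. Across all 19 circles, exon 2 opened 43.2% of the gene's reads and exon 8 opened 42.9%, while exon 11 closed 47.1% and exon 3 closed 35.7%. The circles covered exons 2 to 16 and 19 to 25, and none held exon 1, 17, 18 or 26.

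Summed over all circles of a gene, the normalised reads of Rad52 were 43.6, 195, 24.8 and 54.9 in sham 1 to 4 and 125, 0, 168 and 134 in TAC 1 to 4. Those of Mlip were 28.1, 45.4, 14.1 and 18.1 in sham, and 32.7, 0, 31.9 and 42.0 in TAC. Those of Fndc3b were 20.1, 9.09, 18.2 and 27.2 in sham, and 26.8, 0, 23.7 and 20.4 in TAC. Rad52 was the highest of the 3 in every library with reads, while Mlip and Fndc3b changed places between libraries. These sums are per closing junction and are not scaled by length. Group means were 79.7 ± 78.1 and 107 ± 73.5 for Rad52, 26.4 ± 14.0 and 26.6 ± 18.3 for Mlip, and 18.7 ± 7.47 and 17.7 ± 12.1 for Fndc3b, in sham and TAC (SD, n = 4 each). None of these differences exceeded the spread between mice. Without sham 2 and TAC 2 the means were 41.1 ± 15.2 and 142 ± 22.5 for Rad52, 20.1 ± 7.20 and 35.5 ± 5.59 for Mlip, and 21.9 ± 4.76 and 23.6 ± 3.21 for Fndc3b (SD, n = 3 each), and the differences of Rad52 and Mlip then exceeded it. By share of each library's reads, Mlip took 0.181, 0.252, 0.0950 and 0.0929% in sham 1 to 4. It took 0.133, 0.147 and 0.183% in TAC 1, 3 and 4, so its groups overlapped with or without sham 2. Fndc3b took 0.130, 0.0505, 0.123 and 0.140% in sham and 0.109, 0.109 and 0.0886% in TAC 1, 3 and 4. Without sham 2 its share was lower in TAC, while its mean in normalised reads was higher.

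The share of the leading circle in the reads of its gene does not depend on the size factors. For Mlip, exons 3 to 7 took 86.5, 90.0, 70.6 and 69.9% in sham 1 to 4 and 97.7, 93.5 and 95.5% in TAC 1, 3 and 4. The 3 TAC libraries with reads were all above the 4 sham libraries, at 95.6 ± 2.09% (SD, n = 3) against 79.2 ± 10.5% (SD, n = 4). The 95% Wilson interval of sham 4 (93 reads), 59.9 to 78.3%, lay below those of all 3 TAC libraries, of which TAC 3 (31 reads) reached lowest, at 79.3 to 98.2%. That of sham 3, 46.9 to 86.7%, lay below those of TAC 1 and TAC 4, at 88.2 to 99.6% and 87.5 to 98.4%. Sham 1 (76.9 to 92.5%) and sham 2 (59.6 to 98.2%, 10 reads) overlapped all of them. Among 145 hosts with at least 5 reads in each library other than TAC 2, the leading share was higher in TAC without overlap in 8.28% and lower in 8.28%. The share of exons 3 to 6 among the reads of exons 3 to 6 and 3 to 7 is nearly the complement for Mlip and no separate observation. It was 13.5, 10, 20 and 9.72% in sham and 2.27, 3.33 and 1.56% in TAC 1, 3 and 4, each TAC value resting on 1 read.

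The lengths that the libraries sampled moved with the share of the main Mlip circle. Reads came from circles with a median of 394, 491, 368 and 353 nt in sham 1 to 4 and 542, 519 and 498 nt in TAC 1, 3 and 4, and the main Mlip circle, of 345 nt, is longer than the other Mlip circles except exons 2 to 6, of 609 nt with 4 reads. Among hosts whose leading circle was longer than the mean of their other circles, its share was higher in TAC without overlap in 12.7% (7 of 55). It was 5.56% (5 of 90) where the leading circle was shorter. Rad52 is among the latter, with 303 nt against a mean of 438 nt for its other circles, weighted by reads. Its mean leading share was 5.57 percentage points higher in TAC, with the groups overlapping. The part of these lengths in the Mlip share was not tested.

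Rad52's leading share was 89.6, 95.3, 86.7 and 86.5% in sham 1 to 4 and 94.6, 96.3 and 94.3% in TAC 1, 3 and 4. Sham 2 lay among the TAC libraries and the other sham libraries below them, with means of 89.5 ± 4.13% (SD, n = 4) and 95.1 ± 1.08% (SD, n = 3). Circles starting at exon 2 made up 10.4, 2.33, 13.3 and 13.5% of the Rad52 reads in sham and 4.76, 3.07 and 4.74% in TAC 1, 3 and 4. For Fndc3b, exons 8 to 11 took 35.8, 0, 22.7 and 50.7% in sham, the 0 resting on 2 reads, and 44.4, 47.8 and 28.1% in TAC 1, 3 and 4. Of the reads of both leading Fndc3b circles, exons 2 to 3 took 54.8, 100, 75.0 and 39.8% in sham and 36.0, 8.33 and 60.9% in TAC 1, 3 and 4, the 100% being 1 read. Which circle led thus changed from library to library within both groups.

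**Figure D3:**
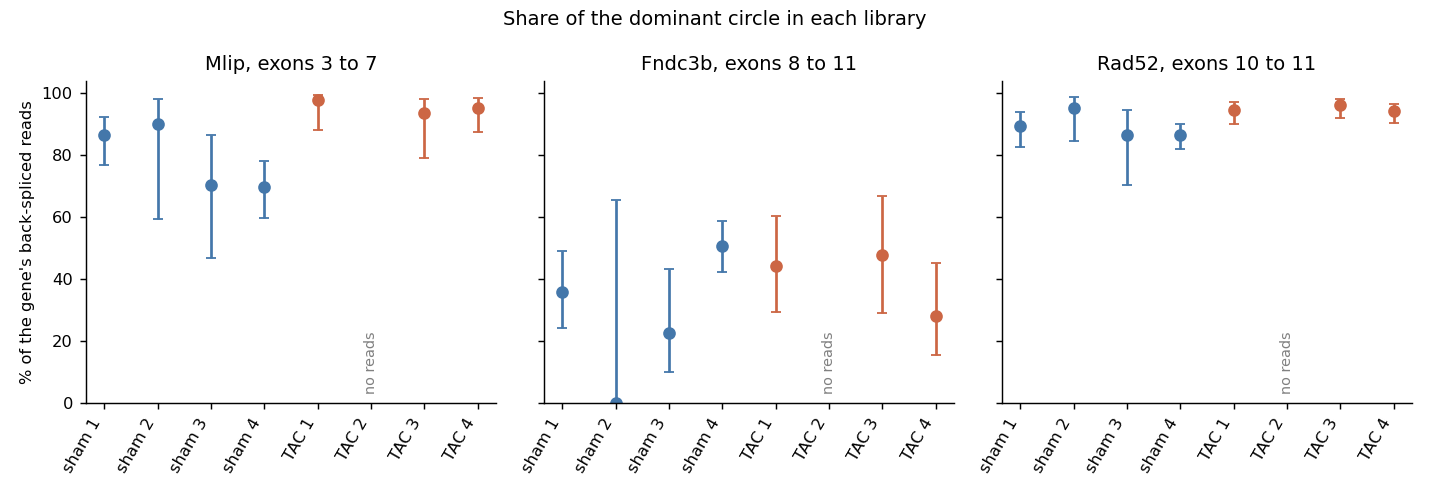
Share of the leading circle in all back-spliced reads of its gene (y axis, %) in each sham (blue) and TAC library (orange), with 95% Wilson intervals as bars; TAC 2 had no reads of the genes. Mlip exons 3 to 7 lie at 69.9 to 90.0% in sham and 93.5 to 97.7% in TAC, Rad52 exons 10 to 11 at 86.5 to 96.3% in all libraries, and Fndc3b exons 8 to 11 at 0 to 50.7%.

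Rad52 and Mlip ranked high among hosts in how far a single circle led. Among 1867 hosts with at least 5 circles, the leading circle held a median of 42.0% of the mean normalised reads. It held 94.0% in Rad52, more than in 99.3% of these hosts, and 89.3% in Mlip, more than in 97.7%. In Fndc3b it held 37.2%, more than in 38.7% of them. Mlip had 5 circles, the least in this set, Rad52 had 7 and Fndc3b 19, and the hosts were not matched by their number of circles. These ranks describe the 3 genes and were not tested.

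The introns beside the circles differed between the genes. Long introns are a known feature of genes that form circles, and the 3689 circles above 0 in at least 4 libraries with a matched transcript had a median of 9329 nt before and 7955 nt after the circle. The main Mlip circle lay between introns of 48654 and 62371 nt, longer than those of 91.7 and 96.5% of these circles. Exons 2 to 3 of Fndc3b lay between introns of 67256 and 64408 nt, longer than 95.1 and 96.9%. Exons 8 to 11 of Fndc3b had 6935 and 17890 nt, longer than 40.4 and 76.3%. Rad52 exons 10 to 11 had short introns, 1032 nt before and 1443 nt after, longer than only 5.08 and 8.65%. The gene is itself short, at 20131 bases. A circle of rank 5 in abundance thus lay between introns at the short end of the range.

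**Figure D4:**
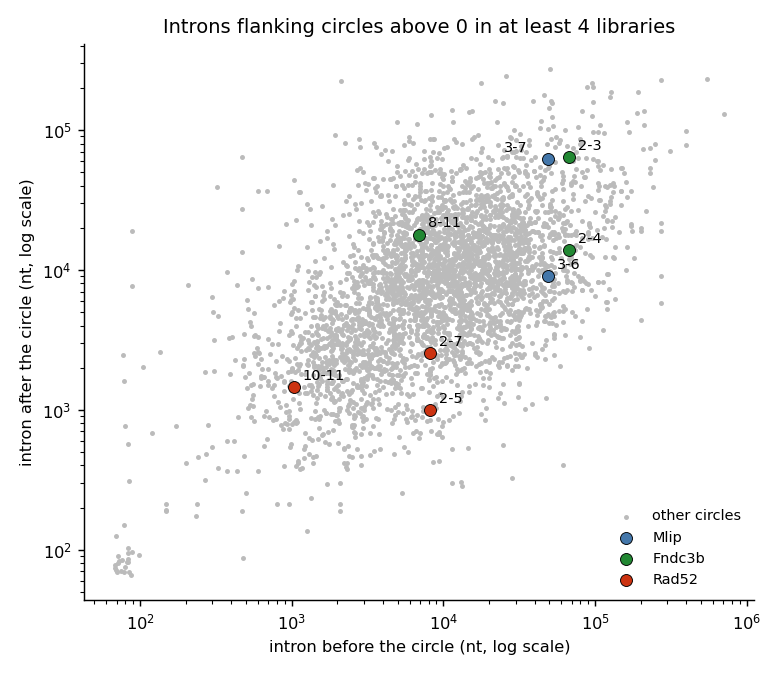
Length of the intron before (x axis) and after (y axis) each circle above 0 in at least 4 libraries, in nt on log scales, with grey points for other circles and coloured points for the 8 circles of Mlip (blue), Fndc3b (green) and Rad52 (red), labelled by exons. Mlip 3-7 and Fndc3b 2-3 lie at the upper right with at least 48654 nt on both sides, and Rad52 10-11 at the lower left with 1032 and 1443 nt.

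All 5 Mlip circles are whole numbers of codons in length, as are 3 of 19 Fndc3b circles, exons 8 to 11 among them, and 2 of 7 Rad52 circles, both of exons 10 to 11. In all these were 10 of the 31 circles. Of all 25955 circles with a length, 38.0% had one divisible by 3, and of those above 0 in at least 4 libraries 36.7% had. Mlip exons 3 to 7 hold 115 codons, Fndc3b exons 8 to 11 hold 135 and Rad52 exons 10 to 11 hold 101. Followed around the closing junction in the annotated frame, none of these 3 sequences met a stop codon, and none holds the annotated start codon of its gene. Translation was not measured. Of the same 3689 circles, 31.2% started at exon 2, as Fndc3b exons 2 to 3 do, and 85.3% were coding throughout.

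The fitted changes of the leading circles depended on TAC 2 and sham 2. With limma on log2(normalised reads + 0.195) over all 8 libraries, the log2 fold change of TAC over sham was -1.0 ± 0.83 (SE) for Rad52 exons 10 to 11. It was -1.03 ± 1.18 for Mlip exons 3 to 7 and 0.22 ± 1.57 for Fndc3b exons 8 to 11. These SE follow the trend of variance with level over all circles, not the spread of the single circle. From the spread of each circle alone they were 2.45 for Rad52, 1.92 for Mlip and 1.97 for Fndc3b. The fitted values of Rad52 and Mlip were thus negative although their group means in normalised reads were higher in TAC. On the whole reads, edgeR's quasi-likelihood fit gave 0.60 ± 0.81, 0.30 ± 0.75 and -0.14 ± 0.68 for the same circles, with the opposite sign for each. This fit reports no SE, and the values after ± were derived from its F statistic.

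None of the 8 circles tested passed limma's adjusted threshold of 0.05, where 0.0268% of 3735 circles did, and none had an unadjusted p under 0.05, where 4.07% did. Of the 4 circles that edgeR could test, none passed, against 13.1% of 717, and none had an unadjusted p under 0.05, against 28.5%. DESeq2 called none either, where 1.68% of circles were called. Without TAC 2 the limma values were 1.36 ± 0.34 for Rad52, 0.83 ± 0.58 for Mlip and 1.62 ± 1.06 for Fndc3b, and Rad52 passed, as did 0.868% of circles in that direction. From the spread of the Rad52 circle alone, its SE in this fit was 0.78, not the 0.34 that follows the trend. With edgeR, leaving out TAC 2 gave Rad52 1.13 ± 0.60, which did not pass where 11.9% did. Without both libraries under 5000 reads, limma gave Rad52 1.97 ± 0.30, Mlip 1.20 ± 0.38 and Fndc3b 0.29 ± 0.56. Rad52 passed, where 14.6% of all 5809 circles were called higher, and its SE from its own spread was 0.37. Fndc3b exons 5 to 6 passed as well, but had entered that fit only through the 3 TAC libraries with its 5 reads, and its value is not given. With edgeR on the same 6 libraries, Rad52 was 1.70 ± 0.38 and passed, as did 16.4% of circles in that direction, while Mlip was 0.87 ± 0.44 and Fndc3b -0.068 ± 0.52. These counts describe circles that were chosen with the contrast known, and nothing is read from them.

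**Figure D5:**
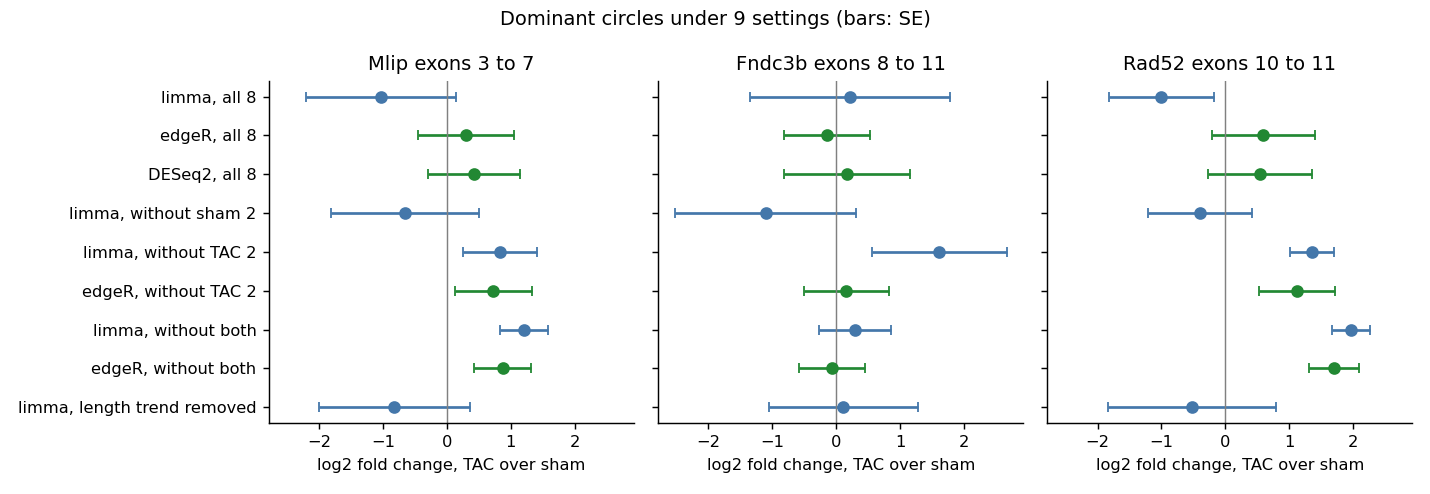
Log2 fold change of TAC over sham (x axis) of the 3 leading circles under 9 settings, points with SE as bars, limma in blue and count-based fits in green. The SE of limma follow the trend over all circles, and those of edgeR are derived from its F statistic. For Rad52 the value runs from -1.0 with limma on all 8 libraries to 1.97 without both libraries under 5000 reads, for Mlip from -1.03 to 1.20, and for Fndc3b it lies on both sides of 0.

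Among the rarer circles, for Mlip exons 3 to 6 limma gave a log2 fold change of -2.18 ± 1.59 over all libraries and -1.37 ± 0.71 without both shallow ones. With each library's length trend removed it was -1.03 ± 1.10. Fndc3b exons 2 to 3 had -2.10 ± 1.53, and -1.26 ± 0.77 without both shallow libraries. Rad52 exons 2 to 5 had -0.09 ± 1.61 over all libraries, 0.95 ± 1.28 without TAC 2 and -0.13 ± 0.59 without both shallow ones. Rad52 exons 2 to 7 had -0.97 ± 1.57, -0.25 ± 1.38 and 0.24 ± 0.84 in the same order. In the 6 deeper libraries these values stood beside 1.97 ± 0.30 for exons 10 to 11, and the difference was not tested.

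Across libraries, the circles most like each leading circle were found by Pearson's r of log2(normalised reads + 0.195), as a description. Over 8 libraries the circle closest to Rad52 exons 10 to 11 was Xdh exons 21 to 24 (r = 0.996), and Mlip exons 3 to 7 were among its 5 closest (r = 0.987). The closest to Mlip was Mettl9 exons 2 to 4 (r = 0.993), and to Fndc3b Rps6kc1 exons 3 to 5 (r = 0.994). Such values were common, with 170 of 3732 circles above 0.9 for Rad52, 178 of 3733 for Mlip and 324 of 3732 for Fndc3b, and these points share depth, including a 0 in TAC 2 for each circle named. Over the 6 libraries with at least 5000 reads the closest were Hdgfl3 for Rad52, Thoc1 for Mlip and Tcf20 for Fndc3b. There r was 0.857 between the leading circles of Mlip and Rad52, 0.488 between Fndc3b and Rad52, and 0.196 between Mlip and Fndc3b. Over these 6 libraries 397 of 3733 circles were above 0.9 for Mlip, 291 of 3732 for Rad52 and 44 of 3732 for Fndc3b.

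Other genes of the same functional groups were looked up as circle hosts, by sums over all their circles. Of 39 genes of homologous recombination and strand break repair, 30 had a circle and 12 could be tested by limma. None was called in either direction or had an unadjusted p under 0.05, and neither of the pair that edgeR could fit passed, with positive fold changes in 6 of 12 and a median of 0.06. The most abundant of them was Fancl, a ubiquitin ligase of the Fanconi anaemia pathway, at 12.1 ± 10.9 in sham and 13.2 ± 6.65 in TAC. Of 24 genes with fibronectin type III domains, 9 had a circle and 8 were tested, none called by limma or, of 3, by edgeR and none with an unadjusted p under 0.05, with a median of 0.71. Fndc3a, the paralog of Fndc3b, gave 1.90, 0, 3.31 and 3.11 in sham and 4.46, 5.77, 10.3 and 7.0 in TAC, the 5.77 of TAC 2 being 1 read. Of 21 genes of the nuclear lamina and envelope, 17 had a circle and 6 were tested, with 0 called by limma, 0 at an unadjusted p under 0.05 and a median of -0.13. Over all 2967 hosts tested the median was 0.13, limma called 0.0337%, and 3.03% had an unadjusted p under 0.05. In edgeR 1 of 3 lamina and envelope hosts passed, in the lower direction, where 8.24% of 1020 hosts passed and 4.9% were lower: Tpr, of the nuclear pore basket, lay at 7.96, 9.09, 19.0 and 13.4 in sham and 3.72, 0, 5.15 and 4.45 in TAC (log2 fold change -2.06, adjusted p = 0.0321, edgeR quasi-likelihood test). On the 6 libraries with at least 5000 reads, edgeR passed 2 of 4 lamina and envelope hosts, Tpr lower and Syne2 higher, where 21.6% of 1387 hosts passed, and none of 5 in either other list. Syne2, which ties the nuclear envelope to the cytoskeleton, lay at 2.28, 0, 0.828 and 1.56 in sham and 12.6, 0, 8.23 and 4.45 in TAC.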

How the data were processed

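Circular RNA was sequenced from hearts of 4 sham and 4 TAC mice, 1 library each, by a company per the labels' protocols. The submitters' processing notes list mm10, HISAT2, StringTie and DESeq2 with neither version nor role. The circle caller and the strand setting were not given in the sources used here. The deposited table holds a signal, which the authors made by dividing the reads of each circle by a size factor of the library. The labels do not state this: in each library all values were whole multiples of a step (100% within 0.001), so whole reads were recovered. Starts were moved from 0-based to 1-based. Exons came from GENCODE M21 transcripts.

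Circles above 0 in at least 4 of 8 libraries were fitted together with limma 3.58.1 (R 4.3.3, trend) after adding 0.195, the smallest value above 0, and taking log2. Recovered reads were fitted with edgeR 4.0.16 (TMM, robust, minimum count 5, minimum total 15) and DESeq2 1.42.0. The SE given for edgeR is the size of the log2 fold change divided by the square root of its F statistic. Benjamini-Hochberg adjustment ran over all circles. Scripts were checked on simulated data. The members, lists and tests were chosen with earlier results of these data known. Named circles are the 5 with the largest mean per gene and every circle above 0 in at least 4 libraries. Rad52 exons 8 to 11 and 2 to 3 and Fndc3b exons 5 to 6 are named beyond this rule, after their values were seen. Intervals of shares are 95% Wilson intervals and, like limits from 0 reads, cover counting error only. Other settings are given in the closing section.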

Additional observations from a re-analysis of the deposited data

Results flagged for a closer look

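In sham 2, Rad52 exons 10 to 11 reached 186 normalised reads against 21.5 to 47.5 in the other sham libraries. The gap to the next sham library was 0.843 of the range of the group, above Dixon's 95% value of 0.829 for 4 samples. The value stands on 41 reads of the 3963 in that library. In all, 25 groups of values were examined, and chance marks about 1 in 20.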

How the results depend on the processing

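Limma called 1 circle over all libraries, 0 with at least 10 reads in 4 libraries, with TMM scaling or with the length trend removed, and 1037 without the libraries under 5000 reads. EdgeR called 94, DESeq2 23, and edgeR 344 without the libraries under 5000 reads and 230 without TAC 2. The last pair was added after seeing the data. Leaving out 1 library gave 0 (without TAC 1) to 41 (without TAC 2), and 6 without sham 2.

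The log2 fold change changed sign as follows. Rad52's leading circle moved from -1.0 to 0.60 (edgeR), 0.54 (DESeq2), 1.97 (limma) and 1.70 (edgeR) without the libraries under 5000 reads, and 1.13 (edgeR without TAC 2). Its sum moved from -1.11 to 0.41, 0.26, 1.85, 1.38 and 0.95 in the same order. Mlip's circle moved from -1.03 to 0.30, 0.42, 1.20, 0.87 and 0.72. Its sum moved from -1.32 to 0.013 (DESeq2), 0.86 and 0.38 without the libraries under 5000 reads, and 0.32 (edgeR without TAC 2). Fndc3b's circle moved from 0.22 to -0.14 (edgeR) and -0.068 (edgeR without the libraries under 5000 reads), and its sum from -1.30 to 0.12 (limma without them). The cause was not tested.

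Leaving out 1 library gave -1.88 to 1.36 for the Rad52 circle and -1.98 to 1.27 for its sum, -1.73 to 0.83 and -2.03 to 0.56 for Mlip, and -1.11 to 1.62 and -1.94 to 0.43 for Fndc3b. For the circles and sums of Rad52 and Mlip and the sum of Fndc3b, leaving out TAC 2 turned the sign. For the Fndc3b circle, leaving out sham 2 or TAC 1, 3 or 4 did (-1.11, -0.37, -0.35 and -0.03).

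The leading share was higher in TAC by 16.3 percentage points for Mlip (13.2 to 19.9 leaving out 1 library) and 5.57 for Rad52 (4.56 to 7.51). For Fndc3b it was 12.8 (3.70 to 20.6), but -4.22 from pooled reads.

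No paired analysis was possible because the replicate numbers follow accession order and the labels pair no mice. Depth limits TAC 2 to values above 17.3 normalised reads and sham 2 to those above 13.6.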
